A study of Mus musculus with 8 samples.

Results

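The 10 genes described here belong to the integrated stress response and to the supply of amino acids that it controls: Atf4, Atf5, Ddit3, Trib3, Chac1, Asns, Slc6a9, Adm2, Psat1 and Phgdh. They are 10 of the 26202 genes in the deposited table, all 10 were found there by symbol, and all 10 passed the filter on low values. The set was chosen by pathway membership with values of these same 8 libraries in view, and which comparison guided the choice is not recorded. The members' levels and differences are therefore descriptions. For each comparison the number of members past the threshold is printed beside that of all genes as part of the description, nothing is read from it, and p-values are printed only for other genes of the pathway.

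Polyadenylated RNA was sequenced from primary cells of the skin epidermis of newborn (P0 to P1) mouse pups. The pups were labelled Dlx3WT (wild type) or Dlx3KO (knockout of Dlx3, a homeobox transcription factor gene of the epidermis), and the cells of every group were plated and transduced after 24 h with an adenovirus. AdGFP encodes green fluorescent protein and served as the control virus, and AdDlx3 encodes Dlx3. The 4 groups were wild type with AdGFP, knockout with AdGFP, wild type with AdDlx3 and knockout with AdDlx3, with 2 libraries in each and 8 in all. The labels do not name the knockout allele, any Cre driver or the strain, there was no group without virus, and nothing states whether the libraries of a group came from separate pups or cultures, so p-values measure the spread between these libraries, which may be technical. Per the sample sheet, batch A holds the libraries numbered 1 and batch B those numbered 2; what a batch stands for is not said.

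The integrated stress response is a shared pathway through which cells answer several kinds of stress. Kinases that sense unfolded proteins in the endoplasmic reticulum (ER), lack of amino acids, double-stranded RNA or lack of haem phosphorylate the translation factor eIF2, which lowers general protein synthesis while raising translation of Atf4. Atf4 protein then binds its target genes, which include those for amino acid synthesis, amino acid uptake and transfer RNA charging, and feedback genes that end the response.

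Atf4 pairs with members of the C/EBP family on a composite element, and the letters TGATGNAA were searched for on both strands in RefSeq promoter windows (build GRCm38.p6, 250 bases before to 50 bases after each start). The letters occurred in 3 of the 14 windows of the 10 genes, against 1304 of all 32851 windows, or 3.97%. Counted by gene, 3 of 10 members held them in any window, against 1219 of 27025 genes, or 4.51%. The 3 windows, those of Trib3, Chac1 and Asns, are shown because they are the member windows that held the letters. Each is written 5′ to 3′ along the gene, and capitals mark the match as it reads in that direction.

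Trib3, chr2:152344011-152344310, minus strand: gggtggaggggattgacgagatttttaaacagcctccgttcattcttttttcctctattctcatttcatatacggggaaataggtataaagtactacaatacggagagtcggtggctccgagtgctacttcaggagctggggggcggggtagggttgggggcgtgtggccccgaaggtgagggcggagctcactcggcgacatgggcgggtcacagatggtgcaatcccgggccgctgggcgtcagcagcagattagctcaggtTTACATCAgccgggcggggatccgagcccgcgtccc
Chac1, chr2:119350992-119351291, plus strand: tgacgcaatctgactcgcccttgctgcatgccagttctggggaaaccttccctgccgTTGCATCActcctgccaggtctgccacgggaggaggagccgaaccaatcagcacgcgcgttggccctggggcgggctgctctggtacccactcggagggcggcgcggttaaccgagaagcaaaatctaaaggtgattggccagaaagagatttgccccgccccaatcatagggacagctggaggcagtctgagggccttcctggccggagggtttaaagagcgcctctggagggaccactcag
Asns, chr6:7693160-7693459, minus strand: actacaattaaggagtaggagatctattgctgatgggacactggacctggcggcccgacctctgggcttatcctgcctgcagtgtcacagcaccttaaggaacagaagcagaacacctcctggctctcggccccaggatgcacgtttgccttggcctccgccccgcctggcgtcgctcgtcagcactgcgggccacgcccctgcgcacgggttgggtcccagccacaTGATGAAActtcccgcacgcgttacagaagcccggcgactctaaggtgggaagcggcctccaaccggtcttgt

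In the Trib3 window the letters read TGATGTAA on the opposite strand, and the match began 15 bases into the transcript. In the Chac1 window they read TGATGCAA on the opposite strand, with the match beginning at position -193 from the start. The Asns window held TGATGAAA on the strand of the gene, beginning at position -23. Among other genes of the pathway and related stress lists, 15 of the 90 with a window held the letters, or 16.7%. They included 5 of 14 aminoacyl-tRNA synthetase and tRNA export genes and 0 of 17 ER chaperone and IRE1 or ATF6 arm genes. A match describes these letters and is not evidence of binding.

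The levels checked the labels for Dlx3 itself, at 1.71 and 1.77 RPKM (reads per kilobase of gene, normalised for library size) in wild type with AdGFP and 0.656 and 0.558 in knockout with AdGFP. With AdDlx3 it reached 237 and 782 RPKM in wild-type cells and 402 and 539 RPKM in knockout cells, batch A before batch B in each pair. Libraries held between 73688900 and 124858000 alignments. Keratinocyte markers were present in every library. Their 13 genes summed to 13752 to 20830 RPKM with AdGFP, to 10337 and 8604 RPKM with AdDlx3 in batch A, and to 1450 and 1831 RPKM with AdDlx3 in batch B. With AdGFP most of each sum was Krt5 and Krt14, at 9244 and 7065 RPKM in wild type of batch A. Over both genotypes 3 of the 13 were called lower with AdDlx3 and 0 higher. In wild-type cells Epcam was at 67.0 and 68.6 RPKM with AdGFP and 61.7 and 71.0 with AdDlx3, and Krt10 went from 20.1 to 140 in batch A. Immune and endothelial markers reached at most 1.26 and 7.20 RPKM, and fewer cells of a type cannot be told apart from less RNA per cell in these bulk libraries.

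**Figure D1:**
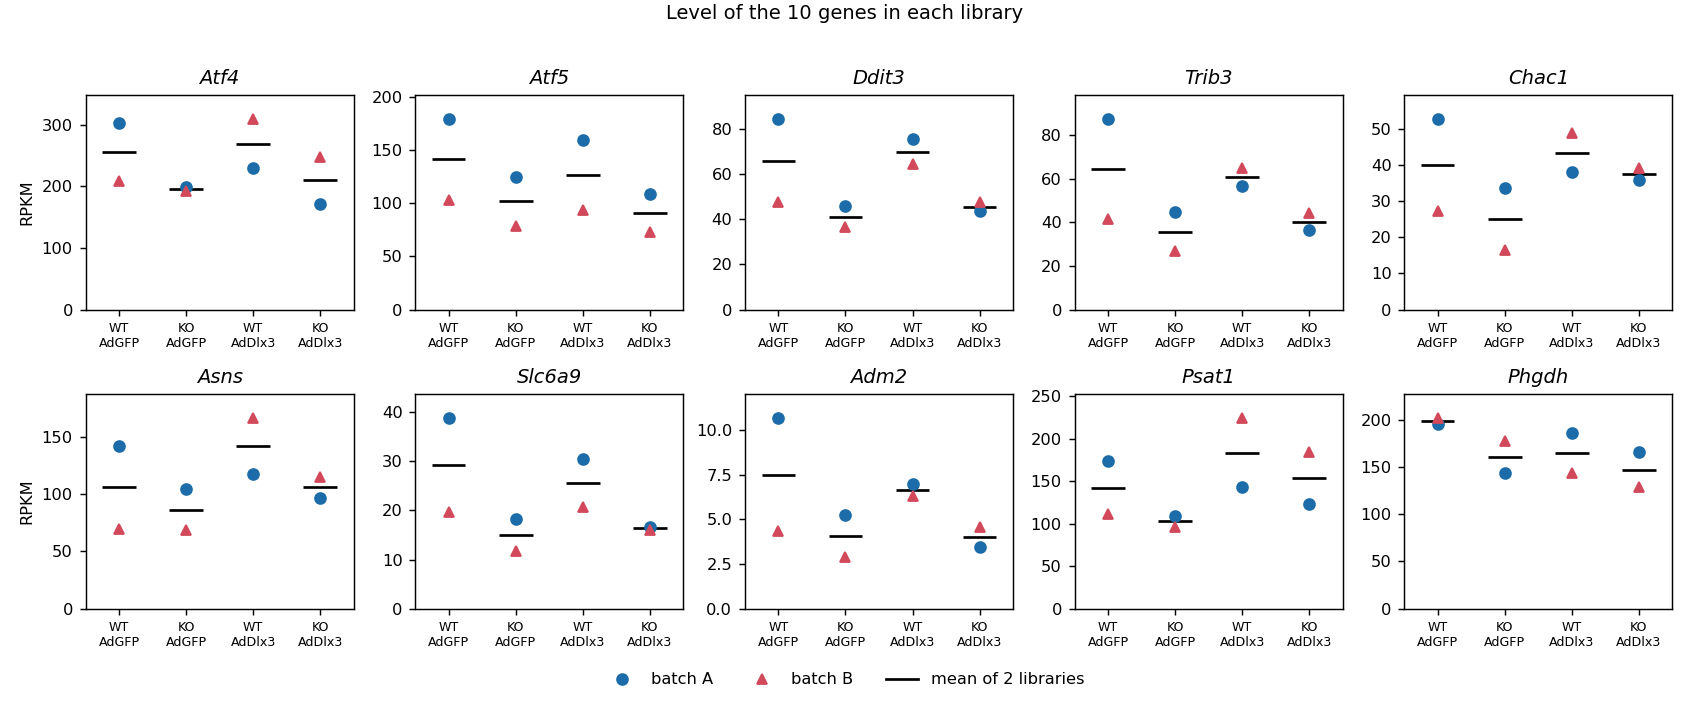
Level of each of the 10 genes in RPKM (vertical axis, from 0) in the 4 groups, with circles for batch A, triangles for batch B and a bar for the mean of 2 libraries. In the AdGFP groups the batch B library lay below the batch A library for 9 of the 10 genes, Phgdh being the exception. The same held in both genotypes for 42.4% of all genes tested.

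Levels per length covered a wide range in the control groups. In wild type with AdGFP, Atf4 had the highest level, 256 ± 67.0 RPKM (mean ± SD, n = 2), followed by Phgdh at 199 ± 4.77, Psat1 at 142 ± 43.8, Atf5 at 142 ± 54.0 and Asns at 106 ± 51.4. Ddit3 at 66.1 ± 26.1, Trib3 at 64.5 ± 32.6, Chac1 at 40.1 ± 18.1, Slc6a9 at 29.2 ± 13.6 and Adm2 at 7.52 ± 4.48 RPKM made up the lower part. The libraries of neighbours in this order overlapped from Psat1 down to Slc6a9, whereas Atf4, Phgdh and Psat1 did not overlap one another and Adm2 lay below Slc6a9 in both libraries.

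Of the transcription factors, Atf4 (chromosome 15, 80255184 to 80257541, plus strand, GRCm38), the central effector of the pathway, in batches A and B stood at 303 and 208 RPKM in wild type with AdGFP, 199 and 192 in knockout with AdGFP, 229 and 309 in wild type with AdDlx3 and 172 and 248 in knockout with AdDlx3. The batch A library was the higher of the pair with AdGFP and the lower with AdDlx3, so the 2 viruses overlapped in both genotypes, while knockout lay below wild type under AdGFP. Atf5 (chromosome 7, 44812256 to 44816658, minus strand), a related factor whose translation is also controlled through eIF2, was at 180 and 103, 125 and 78.7, 160 and 93.9, and 109 and 72.7 RPKM in the same order of groups. Every Atf5 value of batch B was below the batch A value of its group, under both viruses. Ddit3 (chromosome 10, 127290774 to 127296288, plus strand), which encodes CHOP, a factor that Atf4 induces in prolonged stress, was at 84.5 and 47.6, 45.8 and 36.6, 75.7 and 64.4, and 43.7 and 47.5 RPKM. All 4 knockout values of Ddit3 lay below all 4 wild-type values, although the highest knockout value, 47.5, was close to the lowest wild-type value, 47.6. Atf5 overlaps Nup62 by 571 bases and Ddit3 overlaps Mars by 68 bases on the opposite strand. With no statement on whether counting used strand, reads from the shared bases cannot be told apart.

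Of the targets that feed back on the response or act on redox state, Trib3 (chromosome 2, 152337422 to 152344032, minus strand), a pseudokinase that binds Atf4 and restrains it, in batches A and B stood at 87.5 and 41.5 RPKM in wild type with AdGFP, 44.6 and 26.9 in knockout with AdGFP, 56.9 and 65.1 in wild type with AdDlx3 and 36.4 and 44.2 in knockout with AdDlx3. The batches differed most with AdGFP, and batch B was the higher of the pair with AdDlx3. Chac1 (chromosome 2, 119351229 to 119354381, plus strand), an enzyme that breaks down glutathione, was at 52.9 and 27.3, 33.8 and 16.6, 38.3 and 48.9, and 36.0 and 39.1 RPKM. Its AdDlx3 values sat between the batch A and batch B values of AdGFP in wild-type cells and above both in knockout cells. Adm2 (chromosome 15, 89322720 to 89324731, plus strand), a peptide hormone of the calcitonin family, was at 10.7 and 4.34, 5.24 and 2.88, 6.97 and 6.32, and 3.44 and 4.55 RPKM. The 2 viruses overlapped for Adm2 in both genotypes.

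Of the amino acid genes, Asns (chromosome 6, 7675169 to 7693254, minus strand), which makes asparagine, in batches A and B stood at 142 and 69.4 RPKM in wild type with AdGFP, 104 and 68.3 in knockout with AdGFP, 117 and 166 in wild type with AdDlx3 and 96.7 and 115 in knockout with AdDlx3. AdGFP values spanned the batch A value of AdDlx3 in both genotypes, and the batch B value of AdDlx3 was the highest of each genotype. Psat1 (chromosome 19, 15904678 to 15947337, minus strand), the aminotransferase of serine synthesis, was at 173 and 111, 109 and 96.6, 143 and 224, and 123 and 185 RPKM. In knockout cells both AdDlx3 values of Psat1 were above both AdGFP values, and in wild-type cells the viruses overlapped. Psat1 shares 556 bases with a pseudogene on the opposite strand. Phgdh (chromosome 3, 98313170 to 98339990, minus strand), which starts serine synthesis from a glycolytic intermediate, was at 195 and 202, 144 and 177, 186 and 144, and 166 and 129 RPKM. Phgdh was the gene of the 10 whose AdGFP values were higher in batch B. Slc6a9 (chromosome 4, 117834506 to 117875198, plus strand), the glycine transporter GlyT1, was at 38.8 and 19.6, 18.2 and 11.8, 30.6 and 20.7, and 16.6 and 16.1 RPKM. All 4 knockout values of Slc6a9 were below all 4 wild-type values. On the opposite strand Slc6a9 overlaps B4galt2 by 5939 bases, Ccdc24 by 6034 and Gm17114, which had no RPKM value, by 33260. B4galt2 reached 8.56 RPKM at most and Ccdc24 0.92. These overlaps are of whole gene spans, introns included, and reads from the shared bases cannot be told apart either.

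The design asks what supplying Dlx3 does to the cells. Most of the 10 genes had responses on opposite sides of 0 in the batches, as given below. Averaged over both genotypes and both batches, the 10 genes moved little. AdDlx3 minus AdGFP ranged from -0.20 ± 0.14 (SE) for Phgdh to 0.46 ± 0.21 for Psat1 on the log2(RPKM + 0.5) scale, with Chac1 at 0.42 ± 0.28, Asns at 0.40 ± 0.25, Ddit3 at 0.15 ± 0.18, Trib3 at 0.11 ± 0.25, Atf4 at 0.08 ± 0.18, Slc6a9 at 0.01 ± 0.24, Adm2 at -0.01 ± 0.28 and Atf5 at -0.15 ± 0.26. Their median was 0.10, beside 0.22 for all 12090 genes tested. By limma, 0 of the 10 passed adjusted p under 0.05, beside a background of 29.2% of all genes called (23.4% higher and 5.74% lower). With the batch as a replicate block 0 of the 10 passed, while the background grew to 38% higher and 10.9% lower. Scaling the libraries by the median of gene ratios moved the median of all genes from 0.22 to -0.06 and the members' median to -0.20. It turned 4 of the members' differences below 0, leaving 3 above, those of Chac1, Asns and Psat1. After that scaling 1 member passed, Phgdh, lower by -0.50 on the log2 scale, beside 9.44% of genes higher and 12.2% lower, and with the block as well 2 members passed, Atf5 and Phgdh, both lower.

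Within each genotype 0 of the 10 passed. In wild-type cells the differences ran from -0.28 ± 0.21 for Phgdh to 0.49 ± 0.38 for Asns, beside 2.62% of genes called, and in knockout cells from -0.15 ± 0.41 for Atf5 to 0.65 ± 0.41 for Chac1, beside 5.32%. With the replicate block the background was 22% and 24.6% and the members' count was still 0 in both. For 6 of the 10 in wild-type cells and 8 of the 10 in knockout cells the difference was above 0. The members' medians were 0.05 and 0.15, beside 0.22 in each genotype for all genes. After scaling 2 and 3 of the 10 were above 0. The wild-type count was 9 without wild type AdGFP replicate 1 and 1 without replicate 2. The knockout count was 9 without knockout AdGFP replicate 1 and 5 without replicate 2. The interaction of genotype and virus ranged from -0.17 ± 0.54 for Asns to 0.47 ± 0.58 for Chac1, with 0 members and 0% of all genes called by limma.

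The response of most of the 10 genes lay on opposite sides of 0 in the batches. In batch A, AdDlx3 minus AdGFP averaged over the genotypes was below 0 in 9 of the 10 genes, with a median of -0.19 beside 0.24 for all genes. In batch B it was above 0 in 8 of the 10, with a median of 0.50 beside 0.20 for all genes. Trib3 was lower with AdDlx3 in batch A, by -0.62 in wild-type and -0.29 in knockout cells, and higher in batch B, by 0.64 and 0.70 on the log2 scale. Asns was at -0.28 and -0.11 in batch A and at 1.25 and 0.75 in batch B. Both genes were thus on opposite sides of 0 in the batches in each genotype.

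Atf4, Ddit3, Slc6a9 and Adm2 had the same arrangement, below 0 in both genotypes of batch A and above 0 in both of batch B, which held for 2.66% of all genes tested, while 9.59% had the opposite one. Atf4 was at -0.40 and -0.21 in batch A and 0.57 and 0.37 in batch B. Chac1, at -0.46 and 0.09 in batch A and 0.83 and 1.21 in batch B, and Psat1, at -0.28 and 0.17 in batch A and 1.01 and 0.93 in batch B, differed in the same sense with knockout cells of batch A above 0. Atf5 stayed between -0.19 and -0.11 in all 4 pairs of libraries. Phgdh went the other way, at -0.07 and 0.20 in batch A and -0.49 and -0.46 in batch B.

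**Figure D2:**
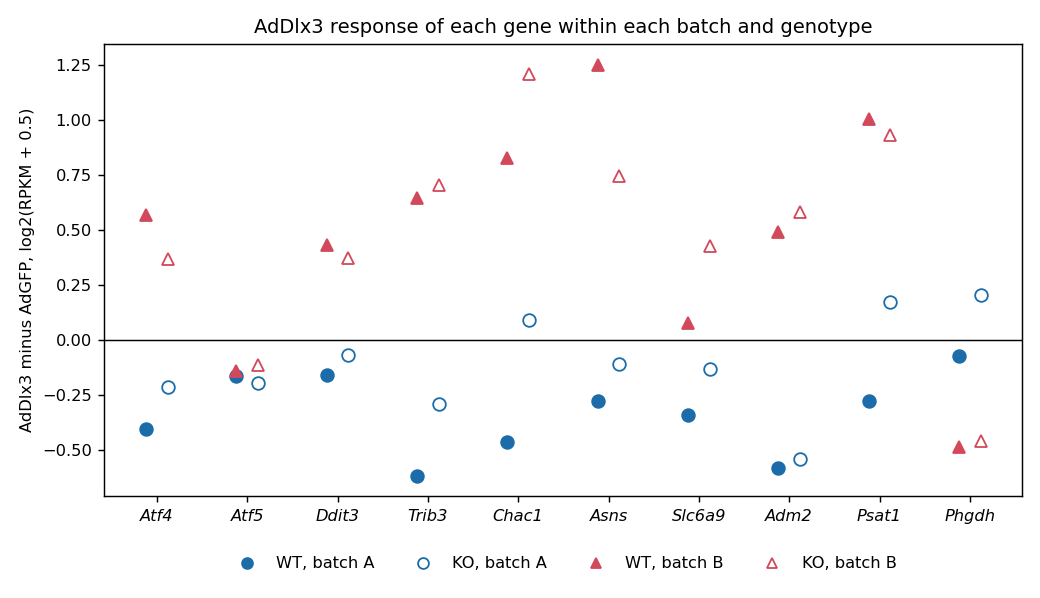
AdDlx3 minus AdGFP on the log2(RPKM + 0.5) scale (vertical axis) for each of the 10 genes, as 1 pair of libraries per point, with circles for batch A, triangles for batch B, filled symbols for wild type and open symbols for knockout. Triangles lie above circles in both genotypes for 9 of the 10 genes, by little for Atf5, and Phgdh is lower in batch B.

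Set against the error of the model with a separate response for each batch, which was chosen after seeing the data, the response in batch B minus batch A was 1.21 ± 0.22 (SE) for Chac1, 1.19 ± 0.19 for Asns, 1.13 ± 0.18 for Trib3, 1.10 ± 0.23 for Adm2, 1.02 ± 0.19 for Psat1 and 0.78 ± 0.19 for Atf4 on the log2 scale. These 6 members passed the limma threshold, beside 5.43% of genes called higher and 8.56% called lower. Ddit3 at 0.51 ± 0.20, Slc6a9 at 0.49 ± 0.23, Atf5 at 0.05 ± 0.15 and Phgdh at -0.54 ± 0.16 did not pass. The members' count was 4 to 7 when each library was left out in turn, lowest without wild type AdGFP replicate 1 or knockout AdDlx3 replicate 2, and 0 without the filter on low values. Because the members were chosen on these libraries, nothing is read from their count. Each batch holds 1 library per group, so a batch and a single culture cannot be told apart. These SEs rest on how far the genotype difference varied over batch and virus, and on spread pooled over all genes. They hold no spread between repeats of a batch.

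The batches differed more with AdGFP than with AdDlx3 in the median of these genes. In wild-type cells with AdGFP, batch B was below batch A in 9 of the 10 genes, by up to -1.21 on the log2 scale for Adm2, with a median of -0.88. In knockout cells with AdGFP it was also below in 9 of the 10, with a median of -0.60 and Chac1 lowest. Over all genes tested, 42.4% were below in both genotypes with AdGFP. With AdDlx3 the medians were 0.03 in wild-type and 0.18 in knockout cells. Single genes moved both ways there, from -0.77 for Atf5 to 0.65 for Psat1 in wild-type cells. In knockout cells they ran from -0.59 for Atf5 to 0.58 for Psat1. Other values that moved with the batch were Dlx3 itself, 237 against 782 RPKM in wild type with AdDlx3, and the keratinocyte markers, 7 of 13 of which had a lower AdDlx3 response in batch B by limma, with summed levels in batch B with AdDlx3 below those of every other library. Their part in the members' difference was not tested.

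The design also asks what loss of Dlx3 does. All 10 genes were lower in knockout than in wild-type cells in every pairing of batch and virus, 40 of 40 differences. With AdDlx3 the knockout cells held 402 and 539 RPKM of Dlx3, beside 237 and 782 in wild-type cells. Differences under AdDlx3, and those over both viruses, therefore do not show loss of Dlx3 alone. The 40 differences are not independent, since most of the genes varied together and share the same libraries. Over all genes tested, 8.60% were lower in knockout in all 4 pairings and 8.05% were higher in all 4. Over both viruses the knockout minus wild-type difference was -0.75 ± 0.24 (SE) for Slc6a9, -0.71 ± 0.28 for Adm2, -0.69 ± 0.25 for Trib3, -0.62 ± 0.18 for Ddit3, -0.46 ± 0.26 for Atf5, -0.43 ± 0.28 for Chac1, -0.36 ± 0.18 for Atf4, -0.34 ± 0.21 for Psat1, -0.32 ± 0.25 for Asns and -0.24 ± 0.14 for Phgdh on the log2 scale. The median was -0.45, beside 0.00 for all genes. These SEs hold the shift between batches as error. With the replicate block they ran from 0.09 for Atf5 to 0.24 for Chac1, with 0.15 for Slc6a9. None of the members passed limma's threshold, 0 of 10 beside 0% of all genes called, and with the replicate block the count was again 0. Over all genes, 194 of the 12090 had an unadjusted p under 0.05, and 531 with the block. The like count of members is left out here and for every other comparison, since the members were chosen on these libraries.

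Under AdGFP alone the genotype difference ran from -0.23 ± 0.38 for Asns to -0.89 ± 0.37 for Slc6a9, with 0 members and 0% of genes called by limma, and 121 genes at an unadjusted p under 0.05. Trib3 was at -0.97 in batch A and -0.61 in batch B with AdGFP, and at -0.64 and -0.56 with AdDlx3. Slc6a9 was at -1.07 and -0.71 with AdGFP and at -0.86 and -0.36 with AdDlx3. Asns came closest to 0, at -0.02 in batch B with AdGFP. Over both viruses, melanocyte markers were lower in knockout cells too: all 7 of 7 were below 0, with a median of -0.56 on the log2 scale, and 0 were called. Their summed level was 382 and 322 RPKM in wild type with AdGFP, 272 and 223 in knockout with AdGFP, 414 and 317 in wild type with AdDlx3 and 232 and 165 in knockout with AdDlx3. Both of the 2 measured immune markers were below 0 as well, with a median of -0.67. Below 0 were also 4 of 13 keratinocyte, 1 of 4 measured fibroblast and 2 of 3 measured endothelial markers. The part of these markers in the members' genotype difference was not tested.

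**Figure D3:**
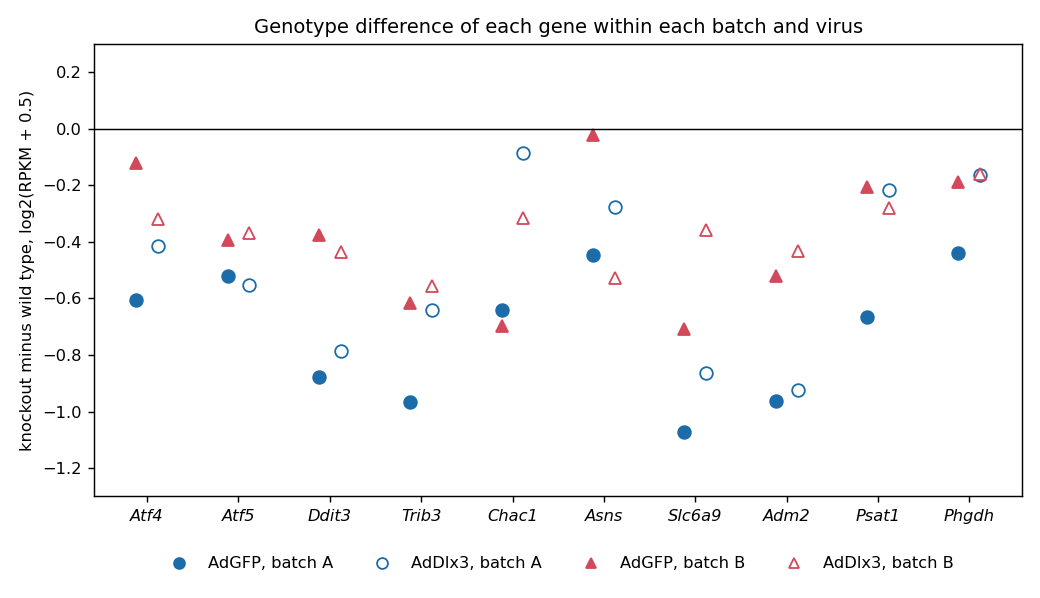
Knockout minus wild type on the log2(RPKM + 0.5) scale (vertical axis) for each of the 10 genes, as 1 pair of libraries per point, with circles for batch A, triangles for batch B, filled symbols for AdGFP and open symbols for AdDlx3. All 40 points lie below 0, from -1.07 for Slc6a9 to -0.02 for Asns.

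The members varied together across the 8 libraries, apart from Phgdh. Pearson's r between a member and the mean of the others, each centred on the log2 scale, was 0.99 for Trib3, 0.97 for Ddit3, 0.96 for Adm2, 0.91 for Slc6a9, 0.85 for Chac1, 0.79 for Asns, 0.78 for Atf4, 0.66 for Psat1, 0.64 for Atf5 and 0.07 for Phgdh. These values describe 8 libraries that share batch, virus and genotype. Outside the members and the listed genes, the 5 genes most like the members' mean profile were Pck2 (r = 0.96), Hax1 (0.96), Tafa5 (0.95), Mxd1 (0.93) and Eif3c (0.92). Pck2, the mitochondrial phosphoenolpyruvate carboxykinase, was at 32.2 and 16.5 RPKM in wild type with AdGFP, 17.2 and 11.8 in knockout with AdGFP, 24.8 and 20.6 in wild type with AdDlx3 and 18.4 and 17.9 in knockout with AdDlx3. Among the listed genes the highest values were those of Sars, the seryl-tRNA synthetase (0.99), Psph, the last enzyme of serine synthesis (0.98), and Xpot, which exports tRNA from the nucleus (0.97).

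Other genes of the pathway were taken from 10 lists holding 121 genes of the table, 119 of which passed the filter. With AdDlx3 over both genotypes, 21 of the 119 rose and 4 fell by limma, with a median of 0.21 on the log2 scale, beside 0.22 for all genes. Of all genes 23.4% rose and 5.74% fell. With the replicate block 34 of the 119 rose and 7 fell, beside 38% and 10.9% of all genes, and 7 rose and 14 fell once the libraries were scaled, beside 9.44% and 12.2%. The shares of the listed genes were not compared with those of all genes by a test. Left out in turn, the libraries gave 13 to 24 rises, with 13 without wild type AdGFP replicate 2, without knockout AdGFP replicate 1 and without knockout AdDlx3 replicate 2. The adjusted p-values below are limma's over all genes.

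Upstream of Atf4, 4 of the 12 genes for the sensor kinases and eIF2 factors rose and 1 fell, and 1 rose and 3 fell after scaling. Eif2ak3, which encodes PERK, the kinase that senses unfolded proteins in the ER, was at 8.01 and 7.78 RPKM in wild type with AdGFP, 8.10 and 7.22 in knockout with AdGFP, 15.3 and 28.8 in wild type with AdDlx3 and 21.1 and 23.7 in knockout with AdDlx3. All 4 AdDlx3 libraries were above all 4 AdGFP libraries, and the gene rose by 1.42 ± 0.19 on the log2 scale (limma adjusted p = 0.00212). Eif2ak2, the kinase PKR that binds double-stranded RNA, rose by 1.07 ± 0.26 (limma adjusted p = 0.0192), and Eif2ak4, the kinase GCN2 that senses uncharged tRNA, by 0.50 ± 0.13 (limma adjusted p = 0.0234). Left out in turn, single libraries ended the call of Eif2ak2 without wild type AdGFP replicate 2 or wild type AdDlx3 replicate 2, and that of Eif2ak4 without wild type AdGFP replicate 1, knockout AdGFP replicate 1, wild type AdDlx3 replicate 2 or knockout AdDlx3 replicate 2. After scaling Eif2ak3 still passed (1.14 on the log2 scale, limma adjusted p = 0.00580), and Eif2ak2 and Eif2ak4 did not, at 0.79 and 0.22 (limma adjusted p = 0.0681 and 0.247). Eif2ak1, the haem-regulated kinase, was 0.24 ± 0.12 higher and did not pass (limma adjusted p = 0.169), but passed with the replicate block (limma adjusted p = 0.0476), and its difference was -0.05 after scaling. Of the subunits of the exchange factor eIF2B, Eif2b2 rose by 0.46 ± 0.11 and Eif2b3 fell by 0.55 on the log2 scale (limma adjusted p = 0.0162 and 0.0119), the first losing its call without wild type AdGFP replicate 1 (limma adjusted p = 0.0503) and after scaling, at 0.16 (limma adjusted p = 0.296). Ppp1r15a, the stress-induced phosphatase subunit GADD34 that reverses eIF2 phosphorylation, was 0.28 ± 0.13 higher and did not pass (limma adjusted p = 0.135), and stood at -0.02 after scaling.

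**Figure D4:**
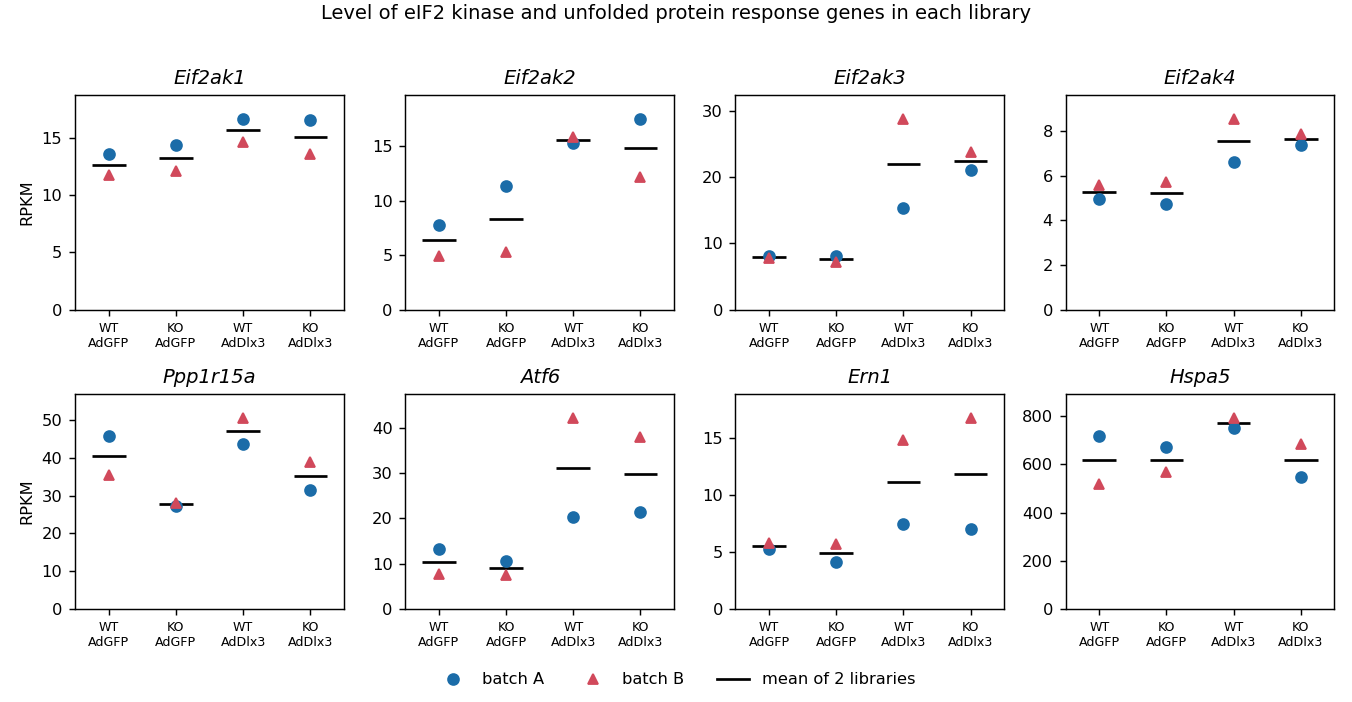
Level in RPKM (vertical axis, from 0) of the 4 eIF2 kinase genes, the phosphatase subunit gene Ppp1r15a and the unfolded protein response genes Atf6, Ern1 and Hspa5 in the 4 groups, with circles for batch A, triangles for batch B and a bar for the mean of 2 libraries. Eif2ak3 stands at 7.22 to 8.10 RPKM with AdGFP and at 15.3 to 28.8 RPKM with AdDlx3.

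Of the 7 partner and downstream transcription factor genes and their kin, 3 rose and 1 fell, and after scaling 0 rose and 1 fell. Atf3, an early stress factor, was at 26.1 and 17.8 RPKM in wild type with AdGFP, 9.76 and 14.4 in knockout with AdGFP, 25.5 and 42.2 in wild type with AdDlx3 and 20.0 and 29.4 in knockout with AdDlx3, and rose by 0.80 ± 0.24 on the log2 scale (limma adjusted p = 0.0381). Its groups overlapped between the viruses in wild-type cells, and leaving out any library but replicate 1 of wild type with AdGFP or AdDlx3 ended its call. Jdp2, a repressor of the AP-1 family, rose by 0.90 ± 0.22 and Sesn2, a leucine sensor, by 0.61 ± 0.17 (limma adjusted p = 0.0193 and 0.0283). Sesn2 kept its call in the same fits as Atf3, and Jdp2 lost it without wild type AdGFP replicate 2, either knockout AdGFP library or knockout AdDlx3 replicate 2. After scaling Atf3 was at 0.51, Jdp2 at 0.61 and Sesn2 at 0.32 on the log2 scale, and none of them passed (limma adjusted p = 0.163, 0.0827 and 0.212). Cebpb, a partner of Atf4, fell from 71.4 and 61.3 RPKM in wild type with AdGFP to 31.8 and 27.0 with AdDlx3, and was at 41.4 and 36.4 in knockout with AdGFP and 26.4 and 32.1 with AdDlx3. It fell by 0.79 over both genotypes (limma adjusted p = 0.0146). In wild-type cells alone it fell by 1.16 (limma adjusted p = 0.0322), the 1 listed gene that passed there. That call was lost without any one AdGFP library or without wild type AdDlx3 replicate 2, at limma adjusted p from 0.0622 to 0.211, and without the filter on low values; with the replicate block 12 listed genes rose and 3 fell in wild-type cells. Ddit4, which restrains mTORC1, was 0.64 ± 0.30 lower and did not pass (limma adjusted p = 0.139), but passed with the replicate block (limma adjusted p = 0.00421).

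Amino acid supply is covered by several lists. Of 15 synthesis and folate enzymes 1 rose, Got1, the cytosolic aspartate aminotransferase, by 0.36 ± 0.11 on the log2 scale (limma adjusted p = 0.0400), a call that, of the 8 fits leaving out a library, held only without wild type AdGFP replicate 1. Of 12 transporters 1 rose and 1 fell. Slc7a11, the cystine importer, was at 7.31 and 5.07 RPKM in wild type with AdGFP, 5.61 and 4.51 in knockout with AdGFP, 17.5 and 18.5 in wild type with AdDlx3 and 7.34 and 16.8 in knockout with AdDlx3, and rose by 1.28 ± 0.25 (limma adjusted p = 0.00912). Slc1a1, a glutamate and cysteine transporter, fell from 1.93 to 3.70 RPKM with AdGFP to 0.131 to 0.868 with AdDlx3, by 1.85 on the log2 scale (limma adjusted p = 0.00398). Of 21 aminoacyl-tRNA synthetase and tRNA export genes Qars rose by 0.36 ± 0.12 and Nars fell by 0.49 (limma adjusted p = 0.0488 and 0.0252), calls that single libraries ended: any of the 8 for Qars, and for Nars wild type AdGFP or AdDlx3 replicate 1, either knockout AdGFP library or knockout AdDlx3 replicate 2. After scaling 6 of the 21 were lower and 0 higher, Got1 and Qars were at 0.07 and 0.06 and did not pass (limma adjusted p = 0.677 and 0.729), and Slc7a11, Slc1a1 and Nars kept their calls (limma adjusted p = 0.0298, 0.00320 and 0.00561).

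Of 14 other Atf4 target genes 2 rose. Gdf15, a stress hormone, was at 1.34 and 1.12 RPKM in wild type with AdGFP, 0.594 and 0.819 in knockout with AdGFP, 3.28 and 6.38 in wild type with AdDlx3 and 3.24 and 3.58 in knockout with AdDlx3. Every AdDlx3 value was above every AdGFP value, and Gdf15 rose by 1.63 ± 0.20 on the log2 scale (limma adjusted p = 0.00169). Stc2, a secreted glycoprotein induced by ER stress, rose by 1.16 ± 0.26 (limma adjusted p = 0.0149). After scaling Gdf15 still passed and Stc2 did not, at 1.40 and 0.87 (limma adjusted p = 0.00347 and 0.0513). In knockout cells alone the listed genes that passed were Gdf15 at 1.70 ± 0.31, Eif2ak3 at 1.49 ± 0.29 and the NRF2 targets Gsr at 1.35 ± 0.26 and Nqo1 at 0.80 ± 0.16 (limma adjusted p = 0.0348, 0.0386, 0.0381 and 0.0415). Leaving out any library of either AdGFP group or of knockout with AdDlx3 ended all of these calls, with limma adjusted p from 0.0847 to 0.178, and Nqo1 also lost its call without either wild type AdDlx3 library (limma adjusted p = 0.0542 and 0.0547). After scaling 0 listed genes rose in knockout cells. With the replicate block 17 listed genes rose and 4 fell in knockout cells, and the difference of the response between genotypes was not called for any listed gene.

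In the ER branch 5 of 20 genes rose and 0 fell, and after scaling 1 rose, Atf6 (1.28 on the log2 scale, limma adjusted p = 0.0212). Atf6, a sensor that is cleaved to a transcription factor, was at 13.1 and 7.62 RPKM in wild type with AdGFP, 10.7 and 7.44 in knockout with AdGFP, 20.3 and 42.3 in wild type with AdDlx3 and 21.5 and 38.1 in knockout with AdDlx3, and rose by 1.57 ± 0.30 on the log2 scale (limma adjusted p = 0.00735). Dnajb9, an ER co-chaperone, rose by 1.10 ± 0.25, Creld2 by 0.57 ± 0.12 and Sdf2l1 by 0.45 ± 0.10 (limma adjusted p = 0.0143, 0.0119 and 0.0141). Ern1, which encodes the sensor IRE1, rose by 0.98 ± 0.30 (limma adjusted p = 0.0417), a call held in 2 of the 8 fits that leave out a library. After scaling Dnajb9 was at 0.81, Creld2 at 0.27, Sdf2l1 at 0.16 and Ern1 at 0.71, and none of them passed (limma adjusted p = 0.0538, 0.153, 0.301 and 0.133). Hspa5, the main ER chaperone, was 0.16 ± 0.16 higher and Xbp1, the factor spliced by IRE1, was -0.08 ± 0.13, and neither passed (limma adjusted p = 0.461 and 0.652). Hspa5 stood at -0.14 after scaling.

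The response of the listed genes also differed between the batches. In this fit the wild-type and knockout libraries of a batch serve as its replicates. The SEs and p-values rest on how far the genotype difference varied over batch and virus, and on spread pooled over all genes. They hold no spread between repeats of a batch. In batch B minus batch A, 25 of the 119 were higher and 3 were lower by limma, beside 5.43% and 8.56% of all genes, with a median of 0.34 on the log2 scale beside -0.07 for all genes. Without the filter on low values 3 were higher and 0 lower, and the count higher was 9 without wild type AdGFP replicate 1, 15 without wild type AdGFP replicate 2, 12 without wild type AdDlx3 replicate 2 and 15 without knockout AdDlx3 replicate 2. Atf6 differed by 1.55 ± 0.18 (limma adjusted p = 0.00122), from a mean response of 0.79 in batch A to 2.34 in batch B. Vldlr, a lipoprotein receptor, differed by 1.57 ± 0.19 and Gpt2, the mitochondrial alanine aminotransferase, by 1.39 ± 0.19 (limma adjusted p = 0.00141 and 0.00258). Gpt2 went from -0.48 in batch A to 0.91 in batch B.

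Of the transporters, Slc1a4, a carrier of serine and alanine, differed by 1.03 ± 0.18 and Slc7a3, a carrier of arginine and lysine, by 1.21 ± 0.23 (limma adjusted p = 0.00724 and 0.00935). Mthfd2, a mitochondrial folate enzyme, differed by 1.15 ± 0.21, Vegfa by 0.97 ± 0.16, Herpud1 by 0.84 ± 0.15 and Dnajb9 by 1.20 ± 0.22 (limma adjusted p = 0.00937, 0.00601, 0.00886 and 0.00890). Of the synthetase and export genes 6 of 21 were higher and 0 lower, namely Eprs, Aars, Gars, Iars, Cars and Tars, at 0.68 to 0.86. The count of 6 was 0 without wild type AdGFP replicate 1, 1 without wild type AdDlx3 replicate 2, 2 without wild type AdGFP replicate 2 and 3 without knockout AdDlx3 replicate 2. Of the sensor kinases and eIF2 genes 0 of 12 passed in either direction. An unadjusted limma p under 0.05 was seen in 3 of these 12, beside 3929 of all 12090 genes. The gene that moved furthest the other way was Osgin1, an NRF2 target, at -1.40 ± 0.23 (limma adjusted p = 0.00560).

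**Figure D5:**
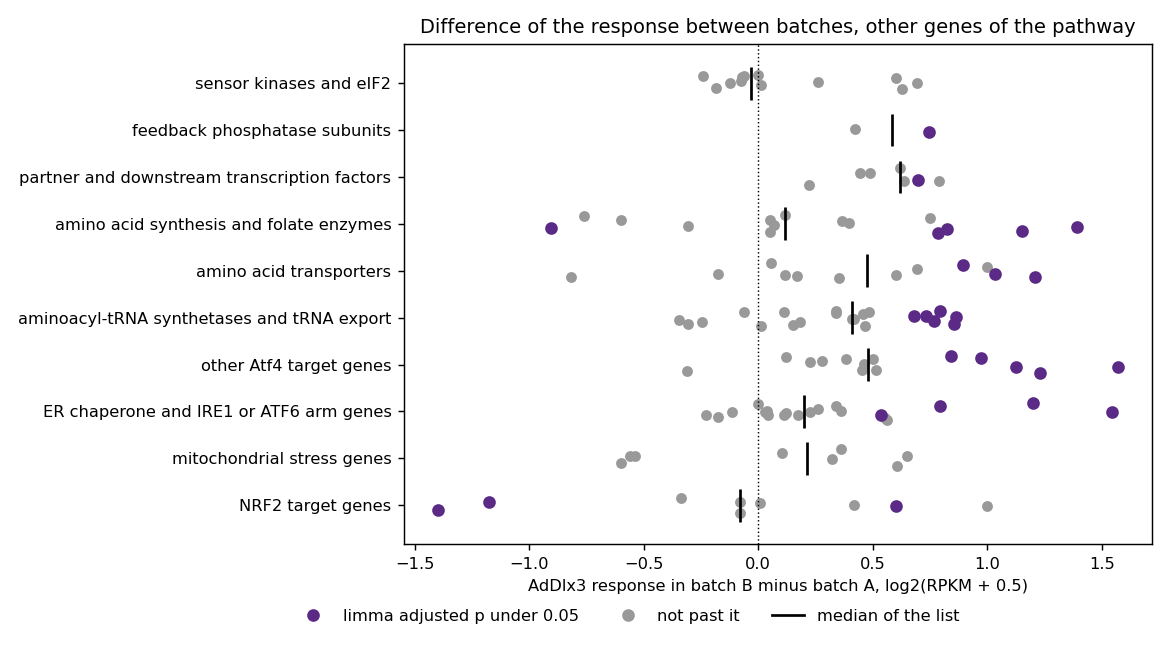
Difference of the AdDlx3 response between the batches, B minus A, on the log2(RPKM + 0.5) scale (horizontal axis) for the 119 listed genes by list, with purple points past the limma threshold, grey points not past it and a bar at the median of each list. The median of the 119 genes was 0.34, beside -0.07 for all genes.

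Between the genotypes 0 of the 119 listed genes passed limma's threshold over both viruses. An unadjusted p under 0.05 was seen in 12 of them, all lower in knockout except Nqo1, beside 194 of all 12090 genes. The lists were chosen with earlier results of these data known, so nothing is read from that count. The median of the 119 was -0.13 on the log2 scale beside 0.00 for all genes, and with the replicate block 0 passed. Slc3a2, the shared heavy chain of several amino acid transporters, was at -0.54 ± 0.14, its light chain Slc7a5 at -0.42 ± 0.17, Shmt2, which makes glycine from serine, at -0.40 ± 0.12, Cth at -0.53 ± 0.16, Sars at -0.36 ± 0.14, Atf3 at -0.63 ± 0.24 and Ppp1r15a at -0.48 ± 0.13, and none passed. These genes were picked after their values were seen, except Atf3 and Ppp1r15a. Under AdGFP 8 listed genes had an unadjusted p under 0.05, beside 121 of all 12090 genes. For the interaction it was 1 listed gene, beside 40 of all genes, and 0 listed genes were called by limma in each.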

How the data were processed

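Per the labels' protocols, library preparation used the NEBNext Ultra II kit. Per the submitters' processing notes, the tools were TopHat2 2.1.1, Partek and bcl2fastq 2.20.0.422, in no stated role, and the build was mm10. The sources used here do not say how reads were assigned to genes. In all, the authors deposited RPKM values for 26202 genes, and their sample sheet gives the count of alignments per library and its batch. The authors' own comparisons were not used here.

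RPKM values became log2(RPKM + 0.5), 12090 genes that reached 1 RPKM in 2 or more of 8 libraries were kept, and all 8 libraries entered a limma 3.58.1 fit in R 4.3.3 with an intensity trend. An additive model of genotype and virus (5 residual degrees of freedom) gave differences over both levels of the other factor, and a model of 4 groups (4 residual degrees of freedom) gave the rest. The SEs printed from these models are without the replicate block and hold the shift between batches as error. A model with a separate virus response per batch (3 residual degrees of freedom) was added after the data were seen. Its error comes from how far the genotype difference varied over batch and virus, since no batch was repeated. That error was moderated by spread pooled over all genes (6.69 prior degrees of freedom). The threshold was a p under 0.05 after Benjamini-Hochberg adjustment over all genes, and the fits were tested on simulated data. Fold changes on this scale understate the change of low genes. With RPKM only, no counting interval was formed.

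The members and the gene lists were chosen with earlier results of these data known. Named genes were Dlx3, the 10 members, 9 regulators always named (the 4 eIF2 kinases, Ppp1r15a, Atf3, Ddit4, Hspa5 and Xbp1), up to 4 passing genes per list by adjusted p, up to 4 listed genes per other comparison, and the 5 genes most like the members. For the batch difference, genes called in the fit and in all 8 fits that leave out a library were named; other genes named there were chosen after their values were seen, as were Eif2ak4, Ern1 and the directions by list. Replicate numbers pair the libraries, since the sample sheet ties each to a batch. Libraries with the same number deviated together from their group means, with correlations of 0.351 to 0.876. With 1 library per batch in each group, the deviations within a group have the same size and opposite signs. The correlations in batch B therefore repeat those in batch A by construction and are not separate evidence. Alternatives were pseudocounts of 0.1 and 1, no filter, median-of-ratios scaling, the replicate block, no trend and each library left out. Gene coordinates are from GENCODE M21 and promoter windows from RefSeq, both of the build of the files.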

Additional observations from a re-analysis of the deposited data

Results flagged for a closer look

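For 6 of the 10 genes the AdDlx3 response was below 0 in both genotypes of batch A and above 0 in both genotypes of batch B, which drew attention because the same contrast ran in opposite directions in the batches; this arrangement of signs was not tested. On the log2(RPKM + 0.5) scale the response in batch B minus batch A was 0.78 for Atf4, 0.51 for Ddit3, 1.13 for Trib3, 1.19 for Asns, 0.49 for Slc6a9 and 1.10 for Adm2. The same arrangement was seen in 322 of 12090 genes.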

How the results depend on the processing

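Over both genotypes, 21 listed genes rose and 4 fell with AdDlx3. The counts were 7 and 14 after median-of-ratios scaling, 34 and 7 with the replicate block, and 15 and 28 with the replicate block and scaling; leaving out each library gave 13 to 24 rises and 3 to 4 falls. In wild-type cells, where 0 rose and 1 fell, the counts were 12 and 3 with the replicate block, 1 rise without the intensity trend and 0 falls without the filter; leaving out each library gave 0 to 2 rises and 0 to 2 falls. In knockout cells, where 4 rose and 0 fell, they were 17 and 4 with the replicate block, 0 and 1 after scaling and 1 rise without the filter; leaving out each library gave 0 to 4 rises and 0 to 1 falls. For the response in batch B minus batch A, 25 higher and 3 lower became 3 and 0 without the filter, and 9 to 35 and 1 to 6 with each library left out. Scaling, with or without the replicate block, turned Eif2ak1 to -0.047, Ppp1r15a to -0.016 and Hspa5 to -0.14. Genotype and interaction counts were 0 under every alternative run. The cause of these changes was not tested. Of 990 values of members under alternatives, 956 moved by less than their spread and 34 by more. Turns of sign were counted only for called members, who were called in the batch difference alone, and 0 were found. Uncalled members did turn. With AdDlx3 over both genotypes 7 members were above 0, but 3 after scaling and 3 without wild type AdGFP replicate 2. Of 661 values of named listed genes, 518 kept their side of the threshold, 133 lost it, 4 gained it and 6 turned sign. With 2 libraries a group, precision rests on spread pooled over all genes and groups.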

Other observations

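Counts outside the amino acid branch stand beside 23.4% of all genes rising and 5.74% falling with AdDlx3, and no test compared these lists with other genes. Of 9 NRF2 target genes, which act against oxidative stress, 4 rose by limma and 0 fell, with a list median of 0.57 on the log2 scale beside 0.22 for all genes; after scaling 4 were higher and 1 lower. Gsr, glutathione reductase, was at 13.0 and 15.3 RPKM in wild type with AdGFP, 9.99 and 15.5 in knockout with AdGFP, 27.9 and 34.7 in wild type with AdDlx3 and 28.5 and 36.8 in knockout with AdDlx3, and rose by 1.23 ± 0.17 (limma adjusted p = 0.00248). Nqo1, a quinone reductase, rose by 0.75 ± 0.10 and Gclm, a subunit of the enzyme that starts glutathione synthesis, by 0.93 ± 0.19 (limma adjusted p = 0.00247 and 0.00959). The fourth was Slc7a11, which the transporter list also holds.

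Of 8 mitochondrial stress genes 1 rose, Hspe1, a mitochondrial co-chaperonin, by 0.80 ± 0.20 (limma adjusted p = 0.0234). It did not pass after scaling (limma adjusted p = 0.116), and the call is one that either wild type AdGFP library, replicate 1 of knockout with AdGFP or replicate 2 of knockout with AdDlx3 ended when left out.

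Of the marker lists, with AdDlx3 over both genotypes 0 of 13 keratinocyte genes rose and 3 fell by limma, with a median of -0.90 on the log2 scale. The counts were 1 rise and 0 falls of 4 measured fibroblast genes, 0 and 0 of 7 melanocyte genes, 1 and 0 of 2 measured immune genes and 1 and 1 of 3 measured endothelial genes.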
